A study of Mus musculus with 50 samples.

Results

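Binding of the glucocorticoid receptor (GR, encoded by Nr3c1) in astrocytes was set against binding in excitatory neurons (ExN) of the primary visual cortex (V1). The comparison rests on 6 of the 39 libraries that had a peak list, 3 from astrocytes and 3 from ExN. All came from mice at postnatal day 14 kept under normal rearing (NR), with 175000 sorted GFP+ nuclei per library and each replicate pooled from several mice. Astrocyte nuclei came from WT mice that had received AAV2/5 carrying GfaABC1D-ΔCre-T2A-EGFP-KASH-4x6T at P0-P1, in which an astrocyte promoter drives an inactive recombinase and a GFP anchored to the nuclear membrane. ExN nuclei came from mice in which Cre under Slc17a7 (Vglut1), the vesicular glutamate transporter gene of cortical excitatory neurons, switched on the nuclear membrane protein Sun1-GFP (Slc17a7-Cre;Sun1-GFPfl/fl in the labels, while the methods of the study give both alleles as heterozygous). The members are sites, defined as merged overlapping peaks called in at least 2 of the 3 libraries of a group. There were 12458 sites in astrocytes and 940 in ExN.

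GR is a nuclear receptor that waits in the cytoplasm bound to heat shock protein chaperones and moves to the nucleus when corticosterone binds it. There it docks as a dimer on the glucocorticoid response element (GRE), a palindrome of paired half-sites, or is held at sites occupied by other factors such as AP-1 and the nuclear factor I (NFI) proteins. CUT&RUN uses an antibody to bring a nuclease to the bound protein, which then cuts short DNA fragments loose on either side. A peak is a place where those fragments exceeded the background, and elsewhere the caller found no such excess.

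The sequences below show examples of the motif words counted in these data, and were printed because they hold these words. Each was taken from the plus strand of mm10 as a peak summit with 50 bp to either side, read from the reference genome. Capitals mark the motif named for each set. The first set holds astrocyte sites with a full GRE (GNACANNNTGTNC, searched on both strands) near genes of the glucocorticoid, clock and astrocyte lists, none of them with a peak in any ExN library. They were chosen after the values were seen.
Per1 intron, chr11:69097036-69097136: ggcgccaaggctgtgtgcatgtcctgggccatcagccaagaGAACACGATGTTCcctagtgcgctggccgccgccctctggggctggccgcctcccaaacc
Klf15 intron, chr6:90471313-90471413: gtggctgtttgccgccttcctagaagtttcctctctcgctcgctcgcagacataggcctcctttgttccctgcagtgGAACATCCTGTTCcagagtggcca
Per2 intron, chr1:91436391-91436491: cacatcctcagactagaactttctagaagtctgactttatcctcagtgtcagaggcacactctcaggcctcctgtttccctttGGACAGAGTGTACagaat
Intergenic, near Thra and Nr1d1, chr11:98738740-98738840: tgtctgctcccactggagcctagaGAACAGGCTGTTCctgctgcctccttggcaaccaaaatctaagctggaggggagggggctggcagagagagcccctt
The second set holds 3 of the best-ranked astrocyte sites, with the NFI half-site (TTGGCA or its complement TGCCAA) in capitals.
Intron, nearest gene Lpp, chr16:24282385-24282485: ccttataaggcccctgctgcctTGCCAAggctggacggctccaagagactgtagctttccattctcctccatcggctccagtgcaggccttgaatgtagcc
Ntm intron, chr9:29949174-29949274: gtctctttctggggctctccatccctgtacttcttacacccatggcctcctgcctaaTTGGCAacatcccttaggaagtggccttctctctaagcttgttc
Plpp3 intron, chr4:105181238-105181338: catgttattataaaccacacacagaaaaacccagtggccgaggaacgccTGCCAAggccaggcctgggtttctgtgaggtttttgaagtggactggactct
The third is a promoter with a GR peak in 3 astrocyte and 2 ExN libraries, with an SP site (GGGGCGGGG) in capitals.
Klf7 promoter, chr1:64121716-64121816: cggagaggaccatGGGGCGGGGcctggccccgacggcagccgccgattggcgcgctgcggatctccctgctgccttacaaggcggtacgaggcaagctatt
The last set holds ExN sites with no astrocyte peak, also chosen after the values were seen, with AP-1 (TGACTCA or TGAGTCA), the E-box CAGATG or its complement, and MEF2 sites in capitals. In the Diaph3 window the E-box and the AP-1 site overlap by a shared stretch.
Intergenic, nearest gene Zbtb20, chr16:42718182-42718282: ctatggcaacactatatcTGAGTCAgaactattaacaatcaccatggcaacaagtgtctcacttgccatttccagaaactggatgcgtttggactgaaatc
Ptprd intron, chr4:77649035-77649135: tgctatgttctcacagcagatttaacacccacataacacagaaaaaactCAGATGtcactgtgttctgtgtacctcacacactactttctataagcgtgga
Intergenic, nearest gene Diaph3, chr14:85935258-85935358: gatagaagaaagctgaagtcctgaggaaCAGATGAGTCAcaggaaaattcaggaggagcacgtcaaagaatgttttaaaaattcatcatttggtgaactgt
Intergenic, nearest gene Nxt1, chr2:148634586-148634686: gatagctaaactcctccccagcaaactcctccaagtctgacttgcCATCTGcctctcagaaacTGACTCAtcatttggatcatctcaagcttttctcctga
Csmd1 intron, chr8:15994882-15994982: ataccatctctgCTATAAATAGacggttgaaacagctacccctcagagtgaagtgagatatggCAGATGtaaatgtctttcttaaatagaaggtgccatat

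More GR peaks were called in astrocytes than in ExN on average, but the libraries varied too widely within each group for the groups to separate. The astrocyte libraries (replicates 1, 2 and 3) held 14012, 2262 and 21539 peaks, and the ExN libraries held 4563, 61 and 1644. Astrocyte replicate 2 lay below ExN replicate 1, so the groups overlapped. The geometric means, 8805 peaks in astrocytes and 771 in ExN, differed 11.4-fold, a log2 difference of 3.51 (two-sided exact permutation test, p = 0.2, adjusted p = 0.4 over 4 tests of libraries). With 3 libraries against 3 the smallest p this test can give is 0.1, so none of the comparisons of libraries here could reach 0.05. Replicates were pools of mice, and p here reflects only how these libraries varied, in part perhaps for technical reasons.

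The peaks also differed in how they stood above background. Each list allows the number of fragments at the summit and the local background to be recovered from the fold enrichment and p that the caller gave. Median summits held 16, 12 and 18 fragments in astrocytes, against 19, 26 and 19 in ExN. The median local background was 1.53, 0.922 and 1.62 fragments at astrocyte peaks, against 3.62, 5.34 and 3.31 at ExN peaks. Every ExN library was thus above every astrocyte library on this measure. Peaks over a background of more than 10 fragments made up 4.49%, 6.98% and 6.90% of the astrocyte lists, against 20.8%, 34.4% and 24.3% of the ExN lists. Total reads are not part of the peak lists, so depth was seen only as the lowest background in each, which was 0.224, 0.126 and 0.220 fragments in astrocytes and 0.180, 0.238 and 0.219 in ExN. These ranges overlapped. The peak names of the ExN lists carried the name of an IgG control and those of the astrocyte lists did not, and the way nuclei were labelled also differed between the groups, so neither can be told apart from cell type.

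**Figure D1:**
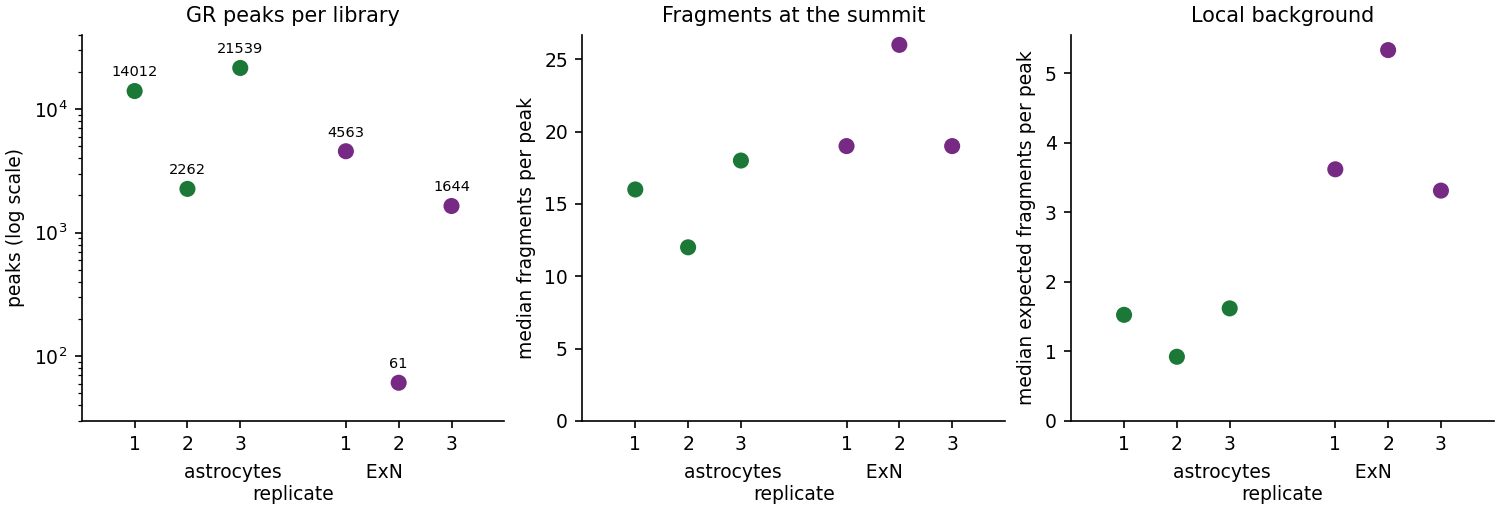
GR peaks per library on a log axis (left), and the median fragments at their summits (middle) and median local background in expected fragments (right) on linear axes. Each point is 1 library and astrocytes stand left of ExN. Peak numbers overlapped between the groups, whereas the background was 0.922 to 1.62 fragments in astrocyte libraries and 3.31 to 5.34 in ExN libraries.

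Most astrocyte sites had no counterpart in ExN, while ExN sites were divided between those that overlapped an astrocyte site and those that lacked any astrocyte peak. Of the 12458 astrocyte sites, 11041 (88.6%) had no peak in any ExN library, 981 (7.87%) met an ExN peak that belonged to no ExN site, and 436 (3.50%) overlapped an ExN site. Of the 940 ExN sites, 437 (46.5%) overlapped an astrocyte site, 104 (11.1%) met an astrocyte peak that belonged to no astrocyte site, and 399 (42.4%) had no astrocyte peak. Below, these are called astrocyte-only, shared and ExN-only sites. The numbers depended on single libraries. Sites called in all 3 libraries numbered 1826 in astrocytes and 35 in ExN, and 20 of those 35 were also called in all 3 astrocyte libraries.

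Recovery of sites was compared with each library of a group scored only at sites of the other libraries of that group, while the libraries of the other group were scored at all sites, so the sets of sites differ. Astrocyte replicates 1, 2 and 3 had a peak at 89.3% of 2044, 14.9% of 12218 and 98.9% of 1836 astrocyte sites, against 10.7%, 0.281% and 4.16% of 12458 in ExN replicates 1, 2 and 3. The difference of the means was 62.7 percentage points (exact permutation test, p = 0.1, the smallest possible, adjusted p = 0.4). The sites came from the astrocyte libraries and were not redrawn for each split, which favours astrocytes. No conclusion is therefore drawn from this p. Scored at the same sites as each astrocyte library, a comparison added after the data were seen, ExN replicate 1 had a peak at 17.4% of the 2044 sites, 10.5% of the 12218 and 16.1% of the 1836, and the other ExN libraries at no more than 9.34% of any set. Each astrocyte library was thus above each ExN library at its own set of sites, with 14.9% in astrocyte replicate 2 and 10.5% in ExN replicate 1 the closest pair.

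At ExN sites the shares were 43.8%, 19.5% and 57.4% of 940 in astrocyte libraries, against 92.1%, 3.78% and 77.8% in ExN libraries, where the counts were 35 of 38, 35 of 927 and 35 of 45. This difference, −17.6 percentage points, came with groups that overlapped (exact permutation test, p = 0.6, adjusted p = 0.6). It became 32.6 without ExN replicate 1, 1.68 without replicate 2 and 26.3 without replicate 3. With 1 ExN library left out, each remaining ExN library was scored at all peaks of the other, so these values rest on a changed measure. The ExN sites came from the ExN libraries and were not redrawn for each split, so no conclusion is drawn from the p-values here. With the astrocyte libraries averaged over the same 3 sets of ExN sites the difference was −1.57 points (exact permutation test, p = 1).

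The 1000 best peaks of a library were met by the other libraries to shares that also depend on list length, since 1000 peaks are a larger part of a short list and were searched for in lists of 1644 to 21539 peaks. Of the 1000 best peaks of astrocyte replicates 1, 2 and 3, ExN replicate 1 held a peak at 12.7%, 17.3% and 23.9%, and ExN replicate 3 at 6.40%, 9.60% and 12.2%. Of the 1000 best peaks of ExN replicate 1, 47.2%, 19.6% and 66.0% met a peak in astrocyte replicates 1, 2 and 3, and of those of ExN replicate 3, 32.4%, 12.9% and 42.9% did. The values are given without comparison. With 61 peaks, ExN replicate 2 was not ranked in this way.

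Shared sites were nearly all promoters, and ExN-only sites nearly all lay away from them. A promoter here is the 500 bp to either side of any annotated transcript start. Promoters made up 40.1% of astrocyte-only sites (95% Wilson interval 39.2 to 41.0%, for the counting of sites only), 94.3% of shared sites (91.7 to 96.1%) and 9.77% of ExN-only sites (7.23 to 13.1%). Before this division they made up 45.8% of all astrocyte sites and 56.8% of all ExN sites. By definition no ExN-only site could meet any of the 9599 promoter peaks of astrocyte replicate 3. How much of the division by position follows from this definition was not tested. Introns held 33.7% of astrocyte-only and 52.6% of ExN-only sites, and intergenic DNA 22.3% and 35.6%. The median distance to the nearest start was 3947 bp for astrocyte-only, 96 bp for shared and 32298 bp for ExN-only sites. Shared sites also lay over a higher background, with a median of 7.28 fragments in astrocytes against 1.53 at astrocyte-only sites, and of 12.1 in ExN against 2.01 at ExN-only sites. The promoter share of astrocyte-only sites was 19.3% without astrocyte replicate 1 and 19.6% without astrocyte replicate 3, and that of ExN-only sites was 24.5% without astrocyte replicate 3.

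**Figure D2:**
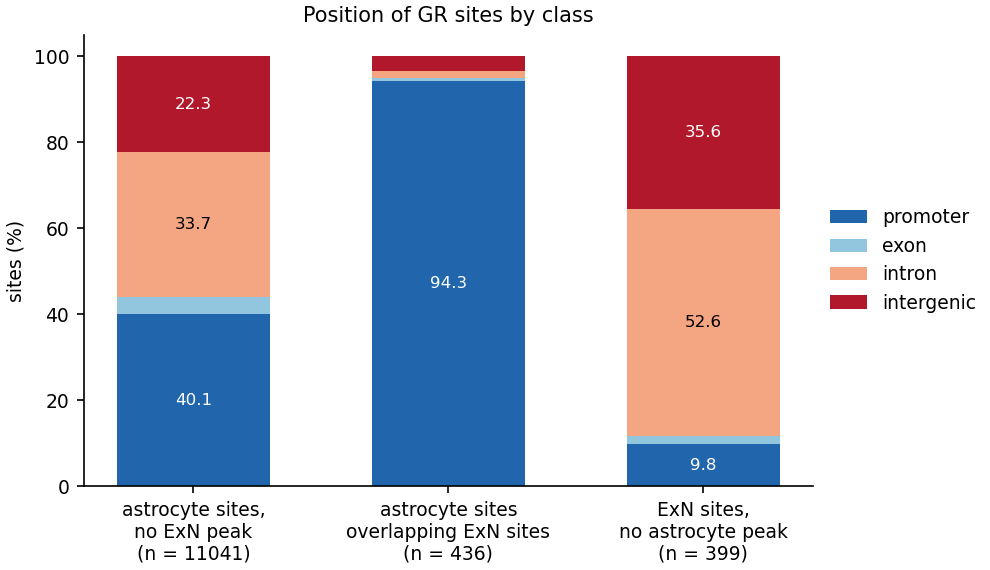
Position of astrocyte-only, shared and ExN-only GR sites, as the percent of sites of each kind that lie in promoters, exons, introns and intergenic DNA. Promoters take 94.3% of shared sites, against 40.1% of astrocyte-only and 9.77% of ExN-only sites. The kinds were defined by overlap with peaks of the other group, and promoters take 56.8% of all ExN sites.

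Over whole libraries, the promoter share did not separate the cell types. It was 43.2%, 30.2% and 44.6% of astrocyte peaks and 39.7%, 60.7% and 40.1% of ExN peaks, a difference of −7.50 percentage points (exact permutation test, p = 0.6, adjusted p = 0.6). Among peaks over a background of at most 10 fragments, a limit set after the data were seen, the difference was 4.84. Base composition was read at the summits as well. Summit windows averaged 58.6% G and C at astrocyte-only sites, 60.9% at shared sites and 44.6% at ExN-only sites, with flanks 1 kb away at 46.9%, 47.3% and 43.4%. Away from promoters it was 53.9% at astrocyte-only and 43.7% at ExN-only sites, and at promoters 65.8% and 52.4%, from 4424 and 39 sites.

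Motifs were counted within 50 bp of each summit and in windows of the same width 1000 bp to either side. Composition alone changes how often a word occurs, and these flanks did not match it. At astrocyte-only sites summits held 58.6% G and C and flanks 46.9%, at their promoters 65.8% and 47.0%, and at ExN-only sites 44.6% and 43.4%. How much of the motif differences follows from composition was not tested. At astrocyte-only sites away from promoters, GR summits carried the GRE and the NFI half-site far more often than their flanks. The full GRE was present at 1.09% of these summits and 0.196% of flanks, and the NFI half-site, the word in capitals in the second set printed above, at 18.9% and 5.12%. At astrocyte-only promoters both were near the flank level, with the GRE at 0.203% of summits and 0.158% of flanks and the NFI half-site at 5.36% and 4.94%. There the SP site was present at 486 of 4424 summits and at 74 of the 8848 flanking windows. For scale, in all 32817 RefSeq promoter windows of 300 bp the full GRE was found in 0.475%, the NFI half-site in 14.1% and the SP site in 11.4%, although these windows are longer.

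Shared and ExN-only summits held other words. Shared summits carried the SP site at 7.80% against 1.26% of flanks and the ETS site (CCGGAAGT) at 2.75% against 0.344%, while the NFI half-site was at 3.44% against 3.78% and 1 of 436 held a full GRE. ExN-only summits carried AP-1, which FOS and JUN dimers bind, at 9.02% against 1.75% of flanks. The E-box CAGATG, a word of neuronal basic helix-loop-helix factors, was at 14.8% against 7.39%. MEF2 sites, bound by activity-regulated factors of neurons, were at 2.01% against 0.251%, from 8 sites. The NFI half-site was also more frequent at ExN-only summits, 13.3% against 5.64%, and the looser palindrome ACANNNTGT was at 6.52% against 2.38%, whereas 1 of 399 held a full GRE. At astrocyte-only summits AP-1 was at 1.58% against 1.64% of flanks, and CAGATG at 5.07% against 7.66%.

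**Figure D3:**
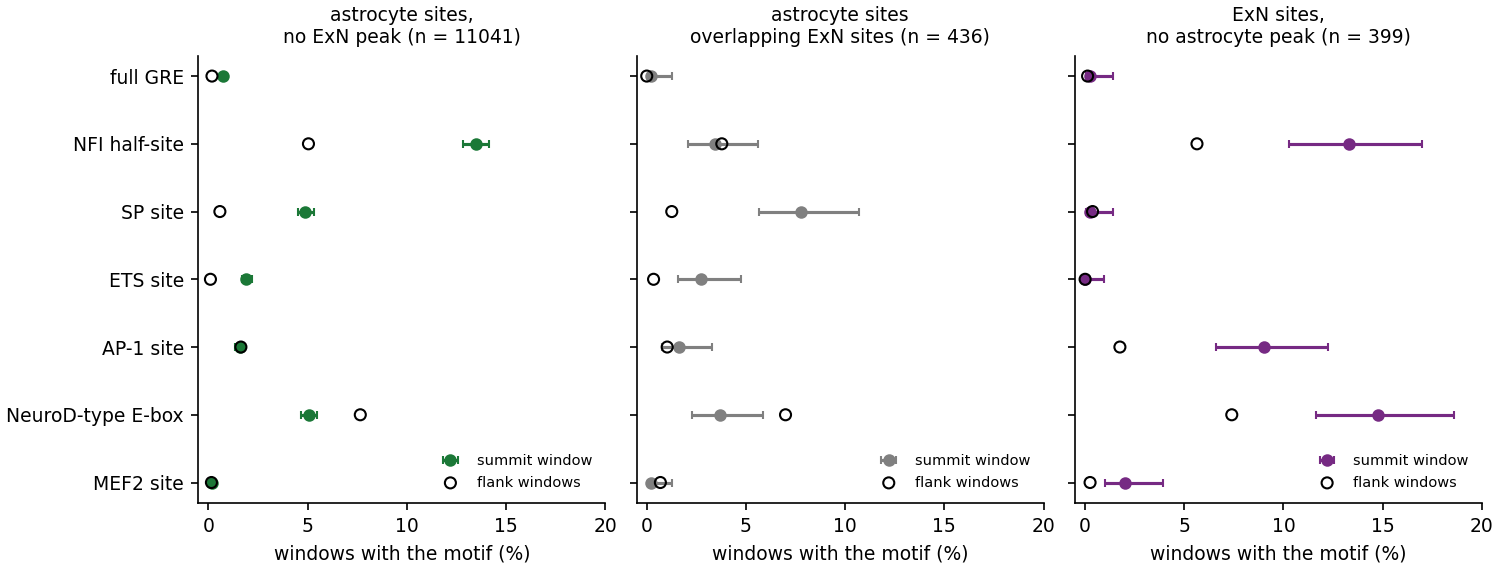
Percent of sites with each motif within 50 bp of the summit and in flanking windows 1000 bp away, for astrocyte-only, shared and ExN-only sites, with 95% Wilson intervals for the summits that cover the counting of sites only. The E-box drawn as NeuroD-type is CAGATG. NFI half-sites reach 13.5% at astrocyte-only summits and 13.3% at ExN-only summits, and AP-1 is at 1.58% and 9.02%.

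The same words were compared over whole libraries, as the share of summits minus the share of flanks in each. For AP-1 this excess was −0.09, 0.31 and 0.02 percentage points in astrocytes, against 3.88, 4.10 and 4.41 in ExN, so every ExN library stood apart. For CAGATG it was −2.32, −1.77 and −2.39 in astrocytes and 5.50, 0.82 and 3.56 in ExN. The NFI half-site had an excess of 7.28, 10.3 and 7.11 in astrocytes and 3.56, 1.64 and 4.11 in ExN, above the flanks in all 6 libraries and higher in every astrocyte library. The full GRE had an excess of 0.49, 0.82 and 0.37 in astrocytes and −0.02, −0.82 and 0.12 in ExN, where it was seen at 7 of 4563, 0 of 61 and 4 of 1644 summits. The groups did not overlap for 7 of the 15 motifs, which are these 4, MEF2, the homeobox word TAATTA and 1 that is not reported here (exact permutation test, p = 0.1, the smallest possible, adjusted p = 0.214 over 15 motifs). None passed the test, and the values of ExN replicate 2 rest on 61 peaks.

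Libraries that played no part in choosing the sites were then read at them. NFIA, an NFI protein that astrocytes need for their development, was profiled in 3 astrocyte and 3 ExN libraries of the same age and rearing. Its astrocyte libraries had a peak at 91.5 to 94.4% of astrocyte-only sites, 99.3 to 100% of shared sites and 2.01 to 3.26% of ExN-only sites. Its ExN libraries had a peak at 5.45%, 0.235% and 0% of astrocyte-only sites, at 72.5%, 9.40% and 0% of shared sites, and at 30.8%, 3.26% and 0% of ExN-only sites. These ExN lists held 4173, 246 and 1 peaks, against 22373 to 27143 in the NFIA astrocyte lists, so shares are limited by the size of each list. ExN-only sites were the one kind at which the largest NFIA list of ExN had a higher share than any NFIA list of astrocytes.

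Astrocytes in which the receptor gene was deleted (GR-KO, Cre virus in GRfl/fl mice) had a GR peak at 12.4% and 1.35% of astrocyte-only sites, in lists of 1846 and 413 peaks. Astrocytes in which it was intact (GR-con, ΔCre virus in GRfl/fl mice) had one at 42.9% and 41.8%, in lists of 7761 and 6792. At shared sites the shares were 7.80% and 9.17% in GR-KO and 65.4% and 81.4% in GR-con. At ExN-only sites GR-KO libraries had 0.251% and 4.76% and GR-con libraries 1.00% and 0.251%. GR libraries of inhibitory neurons (InN), with 916 to 2446 peaks, had a peak at 0.716 to 3.46% of astrocyte-only, 13.3 to 51.1% of shared and 3.26 to 6.52% of ExN-only sites. Oligodendrocyte lists of at most 110 peaks reached 0.0634% of astrocyte-only and 17.7% of shared sites. Libraries of 250000 fibroblast nuclei of the 3T3 line given dexamethasone, a synthetic glucocorticoid, had peaks at 2.16% and 1.97% of astrocyte-only, 16.7% and 16.1% of shared and 3.51% and 3.26% of ExN-only sites.

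**Figure D4:**
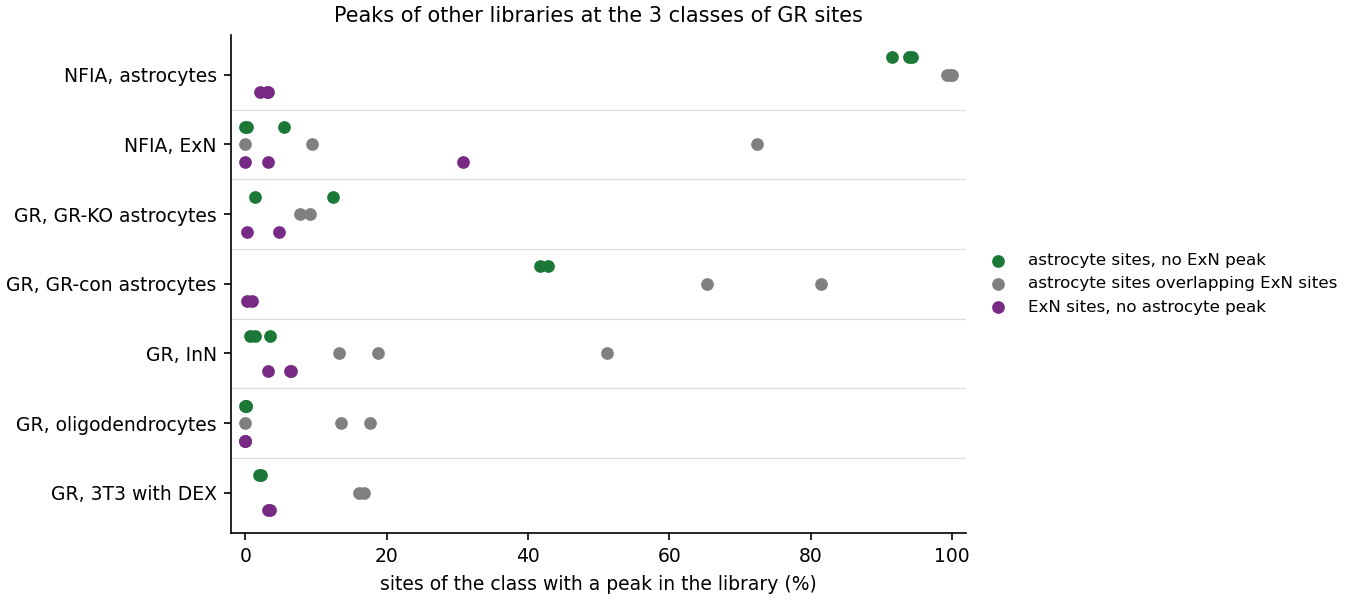
Percent of astrocyte-only, shared and ExN-only GR sites with a peak in libraries not used to choose them, with 1 point per library. NFIA of astrocytes lies between 91.5 and 100% at astrocyte-only and shared sites and between 2.01 and 3.26% at ExN-only sites, and GR-KO astrocytes lie below GR-con astrocytes at astrocyte-only and shared sites.

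The full GRE was present at 81 astrocyte-only sites, of which 24 were called in all 3 astrocyte libraries. GR-KO libraries had a peak at 8.64% and 1.23% of sites with a GRE, against 12.4% and 1.35% of the other astrocyte-only sites. GR-con libraries had one at 71.6% and 59.3% of sites with a GRE, against 42.7% and 41.6% of the others. In the 3T3 cells with dexamethasone the shares were 18.5% and 17.3% with a GRE and 2.03% and 1.85% without. NFIA libraries of astrocytes had a peak at 86.4 to 93.8% of sites with a GRE and 91.6 to 94.4% of those without. The 1488 astrocyte-only sites with an NFI half-site had a GR-con peak at 53.4% and 48.7%, against 41.3% and 40.7% of sites without one. Promoters made up 11.1% of sites with a GRE against 40.3% without, and 15.9% of sites with an NFI half-site against 43.8% without. None of these shares was tested.

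Genes were then read through lists chosen for their known roles, by whether a site lay within 50 kb of the start. Of 21911 protein-coding genes, 50.4% had an astrocyte site and 8.79% an ExN site within that distance, 26.5% had an astrocyte site and no ExN peak at all, and 0.351% had an ExN site and no astrocyte peak. Sites called in all 3 astrocyte libraries lay near 10.5% of genes. With 1 library left out these shares ran between 10.4 and 50.4% for an astrocyte site, 0.584 and 8.79% for an ExN site and 4.29 and 40.6% for an astrocyte site and no ExN peak. Each list is given beside these shares as a description, and peaks mark binding near a gene rather than its expression, which was not measured in these libraries.

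Genes that define astrocytes mostly lay near astrocyte sites that ExN lacked. Of 40 such genes, 37 had an astrocyte site, 26 of them (65.0% of the list) with no ExN peak in any library, and 4 had an ExN site. For 26 of 40 the site was called in all 3 astrocyte libraries. With 1 library left out, 25 to 37 had an astrocyte site, 16 to 31 had one with no ExN peak, and 1 to 4 had an ExN site. Slc1a2, the main glutamate transporter of astrocytes, had 11, 4 and 16 peaks within 50 kb in the astrocyte libraries and none in ExN. It ranked below the members named by rule and was chosen after its values were seen, as was Apoe. Aqp4, the water channel of astrocyte endfeet, had 3, 3 and 7 and none. Plpp3, a lipid phosphatase, had 8, 3 and 11 and none, and its intronic site is printed above. Htra1, a secreted protease, had 12, 3 and 16 and none, and Hepacam, an adhesion protein of astrocytes, had 5, 1 and 6 and none. Aldh1l1, a folate enzyme used as an astrocyte marker, had 16, 2 and 17 in astrocytes and 1, 0 and 0 in ExN. Cst3, a secreted protease inhibitor, had 9, 2 and 8 in astrocytes and 0, 0 and 1 in ExN. Apoe, the lipid carrier, was an exception with an ExN site, and had 8, 2 and 8 peaks in astrocytes and 1, 1 and 1 in ExN.

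The NFI genes and other glial transcription factors also lay mostly near such sites. All 17 had an astrocyte site, 12 (70.6%) with no ExN peak, and 4 had an ExN site. For 9 of 17 (52.9%) the site was called in all 3 astrocyte libraries, against 65.0% of the astrocyte genes. Nfia itself had 7, 4 and 10 peaks in astrocytes and none in ExN. Id3, an inhibitor of helix-loop-helix factors, had 10, 2 and 12 and none, and Sox9, a determinant of astrocyte fate, had 4, 1 and 3 and none. Lhx2, a homeodomain factor of cortical progenitors, had 4, 2 and 6 and none. Nfix had an ExN site, with 16, 1 and 17 peaks in astrocytes and 2, 0 and 1 in ExN. Zbtb20, a zinc finger factor of astrocyte development that was also chosen after its values were seen, had peaks in all 6 libraries, 6, 1 and 5 in astrocytes and 1, 1 and 1 in ExN within 50 kb of its start.

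Known glucocorticoid targets were near astrocyte sites in 24 of 30 cases, 10 of them with no ExN peak, and near ExN sites in 4 cases. In 12 cases (40.0%, against 10.5% of all genes and 5.00% of housekeeping genes) the astrocyte site was called in all 3 libraries. Without astrocyte replicate 1 there were 13 cases, 5 with no ExN peak, and without astrocyte replicate 3 there were 12, 4 with no ExN peak. Without ExN replicate 1, 20 cases had no ExN peak, and no case had an ExN site without ExN replicate 1 or without ExN replicate 3. Per1, a clock repressor that glucocorticoids induce directly, had 9, 2 and 13 peaks in astrocytes and 2, 0 and 1 in ExN. Its GRE site, printed above, had a fold enrichment of 15.5, 7.55 and 26.4 in the astrocyte libraries and no peak in ExN. Klf15, a transcription factor of metabolism, had 18, 1 and 19 peaks in astrocytes and 1, 0 and 0 in ExN. Its GRE site, also printed above, lies within 50 kb of the start of Aldh1l1 too, so these 2 genes share peaks. Mt2, a metallothionein, had 16, 2 and 15 against 1, 0 and 0, and Glul, glutamine synthetase, 4, 1 and 5 against 1, 0 and 0. Klf9, another direct target, had 9, 2 and 9 against 1, 0 and 1, with an ExN site. Mertk, a phagocytic receptor, had 5, 3 and 6 peaks in astrocytes and none in ExN. Fkbp5, a chaperone that feeds back on GR and was looked up for that role, had 0, 1 and 2 in astrocytes and none in ExN.

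Genes of the receptor's own machinery were read in the same way. Of 16 genes for the receptor and its partners, 14 had an astrocyte site, 8 with no ExN peak, and 3 had an ExN site. Nr3c2, the mineralocorticoid receptor, had 1, 1 and 1 peaks in astrocytes and none in ExN. Stip1, a co-chaperone that links heat shock proteins, was called in all 6 libraries, with 3, 1 and 3 in astrocytes and 1, 1 and 1 in ExN. Ncoa2, a coactivator, had an ExN site but no astrocyte site, with 0, 0 and 1 peaks in astrocytes and 1, 0 and 1 in ExN. Of 19 circadian clock genes, 16 (84.2%) had an astrocyte site. For 5 (26.3%) there was no ExN peak, a share near the 26.5% of all genes. An ExN site lay near 6 (31.6%, against 8.79% of all genes), the most of any list. Rora, a nuclear receptor that activates Arntl, had 1, 1 and 2 peaks in astrocytes and none in ExN. Nr1d1, a heme-bound repressor of the clock, had 14, 1 and 21 in astrocytes and 3, 0 and 2 in ExN.

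Immediate early and housekeeping genes were near sites of both kinds. Of 19 immediate early genes, 16 (84.2%, against 50.4% of all genes) had an astrocyte site. For 2 (10.5%, against 26.5%) there was no ExN peak, and 4 (21.1%, against 8.79%) had an ExN site. Jun, which encodes an AP-1 subunit, was called in all 6 libraries, with 2, 1 and 4 peaks in astrocytes and 1, 1 and 1 in ExN. Fos had 4, 0 and 6 in astrocytes and 3, 0 and 1 in ExN. Of 20 housekeeping genes, 19 had an astrocyte site and 4 an ExN site, but for 1 of them alone was an astrocyte site called in all 3 libraries, against 26 of 40 astrocyte genes. With 2 astrocyte libraries the housekeeping count was 1 without replicate 1 and 1 without replicate 3, and that of astrocyte genes was 26 and 25.

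Genes of excitatory and inhibitory neurons, microglia and vessels had lower shares than protein-coding genes as a whole for astrocyte sites. Of 24 genes of excitatory neuron identity, 7 (29.2%) had an astrocyte site and 2 (8.33%) an ExN site, against 50.4% and 8.79% of all protein-coding genes. The ExN share was thus near that of all genes. None had an ExN site without an astrocyte peak, a class that held 0.351% of all genes. The 2 were Slc17a7, with 5, 0 and 6 peaks in astrocytes and 4, 0 and 3 in ExN, and Tle4, a corepressor of deep-layer neurons, with 1, 1 and 3 in astrocytes and 1, 0 and 1 in ExN. Slc17a7 is also the gene whose Cre line labelled the ExN nuclei, and it lies near the housekeeping gene Rpl13a, so the 2 share sites. Of 23 pan-neuronal genes 14 had an astrocyte site and 0 an ExN site, against an ExN background of 8.79%. Of 21 inhibitory neuron genes 4 (19.0%) had an astrocyte site and 2 (9.52%) an ExN site, and of 18 oligodendrocyte genes 8 (44.4%) and 0. Among 13 microglial genes 4 (30.8%) had an astrocyte site and 1 (7.69%) an ExN site, and among 16 endothelial and mural genes 4 (25.0%) and 1 (6.25%). That 1 was Cdh5, the cadherin of endothelial junctions, with no peak in astrocytes and 1, 0 and 1 in ExN. It was the sole member of the 13 lists with an ExN site and no astrocyte peak. This is 1 of the 271 listed genes, where 0.351% of all protein-coding genes had an ExN site and no astrocyte peak.

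**Figure D5:**
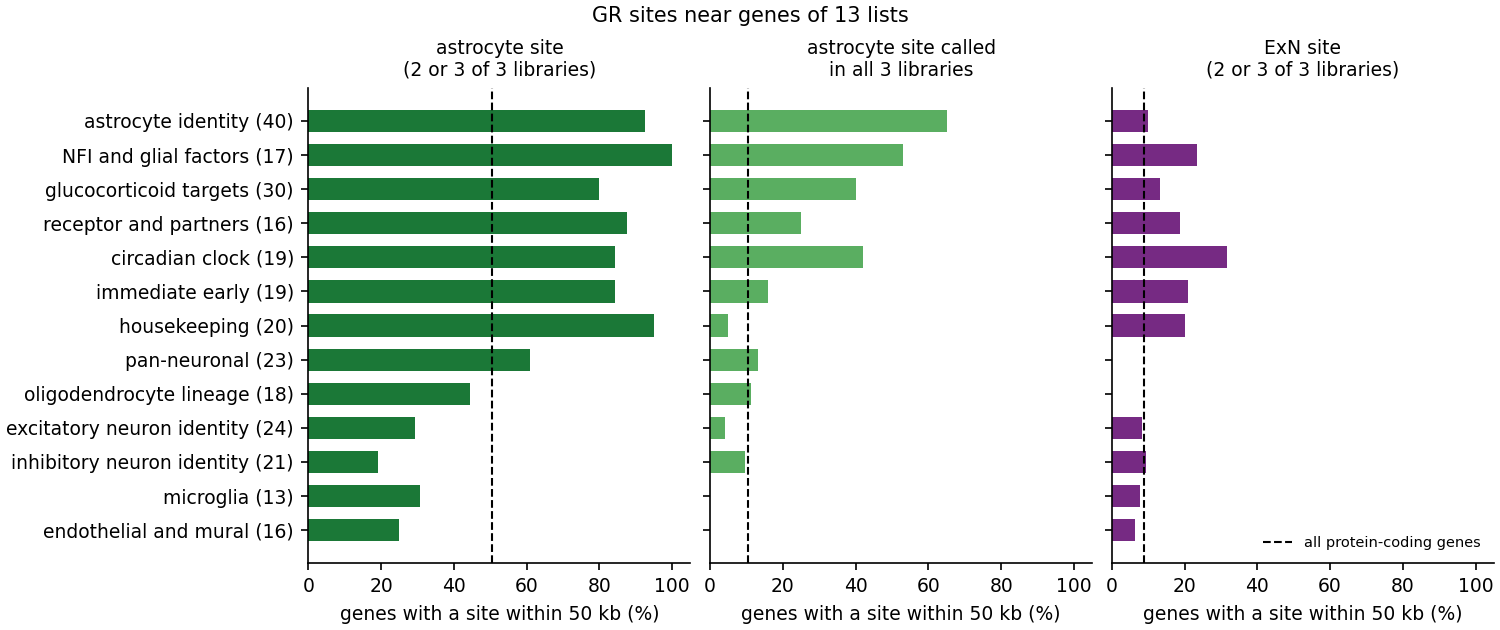
Percent of the genes of each list with a GR site within 50 kb of the start, for astrocyte sites (left), astrocyte sites called in all 3 libraries (middle) and ExN sites (right), with the number of genes in brackets and the share of all protein-coding genes (50.4%, 10.5% and 8.79%) as dashed lines. Astrocyte identity genes reach 92.5%, 65.0% and 10.0%, and excitatory neuron identity genes 29.2%, 4.17% and 8.33%.

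The best-ranked sites of each kind had different neighbours. The 10 best astrocyte-only sites, ranked by their p among the peaks of each library, lay near Lpp, Fbxo2, Ntm, Cst3, Tmem161b, Plpp3, Sfxn5 (2 sites), Gm9833 and Zfp36l1. The Lpp site at chr16:24282125-24282689 had a fold enrichment of 10.7, 13.2 and 15.6 in the astrocyte libraries. The Plpp3 site at chr4:105180967-105181652 had 11.4, 12.7 and 26.7. The promoter site of Sfxn5, a mitochondrial carrier, at chr6:85320333-85320913, had 24.2, 10.5 and 42.0. All 10 had a peak in the 3 NFIA libraries of astrocytes and in both GR-con libraries, and in none of the NFIA libraries of ExN. Over all astrocyte-only sites, NFIA libraries of astrocytes had a peak at 91.5 to 94.4% and those of ExN at 0 to 5.45%. There the GR-con libraries had one at 42.9% and 41.8% and the GR-KO libraries at 12.4% and 1.35%. However, 8 of the 10 also had a peak in GR-KO astrocytes, those near Ntm, Plpp3 and Gm9833 and the intronic Sfxn5 site in both GR-KO libraries, and the others except Lpp and Zfp36l1 in 1. Of the 3 GR libraries of astrocytes from dark-reared (DR) mice, all had a peak at the Lpp and Tmem161b sites, 1 had a peak at the sites near Fbxo2, Cst3 and Zfp36l1, and none had one at the other 5.

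The 10 best shared sites were promoters without exception, those of Ppm1b, Kmt5c, Ep400, Hnrnpl, Evi5l, Klf7, Kat6b, Papss1, Tnrc6b and Phlpp1. Promoters made up 94.3% of all shared sites. Several of these genes encode general regulators, such as the chromatin enzymes Kmt5c, Ep400 and Kat6b. The Klf7 promoter at chr1:64121562-64121922 had a fold enrichment of 9.15, 6.80 and 9.57 in the astrocyte libraries, against 3.28 and 3.35 in ExN replicates 1 and 3. The Ppm1b promoter at chr17:84957599-84958053 had 5.39, 7.15 and 10.1 in astrocytes, against 5.31 and 3.58 in ExN replicates 1 and 3. Neither was called in ExN replicate 2.

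Of the 10 best-ranked ExN-only sites, 3 (ranks 1, 2 and 6) lay in a ribosomal RNA interval. Of all 399, 7 fell within chr17:39843228-39848763, annotated as Gm26917 and the ribosomal RNA gene CT010467.1, where the background was 173 to 533 fragments and the fold enrichment 1.36 to 2.18. Their nearest protein-coding gene is Esp38. The 3 among the best-ranked had a peak in all 3 GR libraries of InN, and in 1, 2 and 2 of the 3 GR libraries of DR astrocytes. The other leading ExN-only sites lay near Ddx20, Dab1, Ckb, Prkg1, Trim36, Gm8797 and Msr1. Those near Prkg1 and Gm8797 also had a peak in all 3 GR libraries of InN, and that near Trim36 in 2. In total 6 of the 10 had an InN peak, while single InN libraries had a peak at 3.26 to 6.52% of all ExN-only sites. The Gm8797 site lay over a background of 59.1 and 62.9 fragments with a fold enrichment of 2.11 and 2.50. It also had a peak in 1 GR library of DR astrocytes. The site in an intron of Dab1, an adaptor of reelin signalling in neurons, at chr4:103979655-103979805, had 13 and 16 fragments at its summit in ExN replicates 1 and 3. The Ckb site, near the brain creatine kinase gene, at chr12:111666552-111666719, had 35 and 22.

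Only 7 ExN-only sites were called in all 3 ExN libraries, and these were named after the values were seen. Of these, 6 lay in introns of Kcnt2, Nav3 and Ptprd or between genes near Dusp14, Cdh9 and Zbtb20. Kcnt2 encodes a sodium-activated potassium channel, and its site had a fold enrichment of 11.1, 6.52 and 7.60 in ExN replicates 1, 2 and 3. The Ptprd site, at a synaptic receptor phosphatase and printed above with its CAGATG word, had 7.79, 4.47 and 5.76. The Zbtb20 site, printed with its AP-1 word, had 4.98, 4.96 and 4.56. By nearest gene, 4 of the 399 ExN-only sites belonged to Nav3, a regulator of microtubules, 4 to Ptprd and 3 to Csmd1.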

How the data were processed

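Peaks were taken from the deposited narrowPeak lists of 3 GR libraries of NR astrocytes and 3 of NR ExN, with groups and replicate numbers from the sample labels. Per the study's methods, cutadapt trimmed the reads, Bowtie2 aligned them to mm10, Picard and SAMtools took out duplicates and low mapping qualities, deepTools selected short fragments, and MACS2 called peaks library by library with IgG as control. The deposited columns, all from the authors' peak caller, are a display score, a ratio (fold enrichment), a −log10 p, a −log10 q and the summit's offset. Every peak in these lists had a q at or below 0.01. A list keeps no depth, so a missing peak is no measure of absent binding.

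Sites were peaks merged where they overlapped by at least 1 bp and called in at least 2 of 3 libraries. Fragments at the summit and local background were solved from the fold enrichment and the p, and matched the deposited −log10 p within 0.001 at 100% of peaks. Annotation was GENCODE M21 for GRCm38.p6, to which mm10 corresponds. Motifs were searched on both strands, with 15 patterns, and the 13 gene lists, 271 genes in all, matched without exception. Groups of libraries were compared with two-sided exact permutation tests with Benjamini-Hochberg adjustment over 4 tests of libraries and over 15 motifs. The scripts were tested on simulated data and ran on Python 3.11.15, numpy 2.4.6, pandas 2.3.3, scipy 1.17.1, pyfaidx 0.9.0.4 and matplotlib 3.10.9.

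Sites to name were the 10 best by mean percentile of the −log10 p among astrocyte sites called in 3 libraries and in no ExN library, among sites called in 3 astrocyte and at least 2 ExN libraries, and among ExN-only sites. Of each list, members with an astrocyte site called in 3 libraries or with an ExN site were named, at most 8 a list; exceptions are stated beside them. The sites, lists and tests were chosen with earlier results of these data known. Alternatives were sites called in all 3 libraries, a q of 0.0001, an overlap of 50%, promoters of 2000 bp, windows of 201 bp, a distance of 10 kb and each library left out. A limit of 10 fragments on the background, leaving out libraries for lists and class shares, and scoring both groups at the same left-out sites were added after seeing the data. A few items are not reported here.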

Additional observations from a re-analysis of the deposited data

How the results depend on the processing

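Of the values that answer a comparison, 90 were kept under the alternatives, 19 moved and 5 changed sign. Differences between the groups were judged by sign alone, whatever their size, and numbers of sites by staying within 1.5-fold. The 90 include the values of the replicate block below, unchanged by construction. Among values for single classes, motifs and lists, 142 kept their size and 83 moved. Here the limit was 1.5-fold for lists and the Wilson interval for shares of classes. With sites called in all 3 libraries there were 1826 astrocyte sites, 1516 of them without an ExN peak and 20 shared, and 35 ExN sites, 7 of them without an astrocyte peak. Leaving out 1 library at a time gave 1836 to 12458 astrocyte sites, 1532 to 11932 of them without an ExN peak, 38 to 940 ExN sites, 27 to 431 shared sites and 9 to 506 ExN sites without an astrocyte peak. The lowest numbers came without astrocyte replicate 3 for astrocyte sites, with or without an ExN peak, and without ExN replicate 1 for the others. With peaks over at most 10 fragments of background, chosen after seeing the data, 574 ExN sites and 156 shared sites were left, fewer by construction. The share of ExN sites with a peak, astrocytes minus ExN, was 12.6 points with sites called in all 3 libraries and ran between −26.2 and 32.6 with 1 library left out. The promoter share of peaks changed sign to 4.84 points under the limit on background. With 1 library left out, each remaining library of its group was scored at all peaks of the other. The shares of sites with a peak then rest on a changed measure. No other cause of these changes was tested. The other ranges with 1 library left out were 1.68 to 4.80 for the log2 difference in peak number, 39.4 to 68.0 points for the share of astrocyte sites with a peak, −11.1 to −0.57 points for the promoter share, 0.51 to 0.98 points for the GRE excess and 4.09 to 5.71 points for the NFI half-site excess.

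With a replicate block (a paired exact sign-flip test over 3 pairs, with a smallest p of 0.25), the differences were unchanged by construction. The exact p was 0.25 for the log2 difference in peak number of 3.51, the share of astrocyte sites with a peak (62.7 points), the GRE excess (0.80 points) and the NFI half-site excess (5.14 points), 0.5 for the share of ExN sites with a peak (−17.6 points) and 1 for the promoter share (−7.50 points). For the shares of sites with a peak, the sites came from the libraries of 1 group, so no conclusion is drawn from their p. The replicate numbers are shared names only, since the groups came from different mice. Replicates 1 and 3 were above and replicate 2 below the mean log2 peak number of both groups. Depth is not in the peak lists, and 2262 and 61 peaks in the replicates numbered 2 limit each statement that needs a call there.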
